A study of Homo sapiens with 4 samples.

Results

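The cells described here are G2 and mitotic cells of MCF10A_H2B_GFP, an untransformed human mammary epithelial line that carries a GFP-tagged histone H2B. They were chosen by their summed counts of CCNB1, PLK1, CDC20, AURKA, CENPF, TOP2A, UBE2C and HMMR per 10000 counts of the cell, without spike-in rows. Only wells in which 2000 to 9000 features were seen and less than 40% of counts were mitochondrial entered the ranking. They were ordered by this marker score within each plate, and the highest 10% of a plate were taken as its G2/M cells. This gave 114 G2/M cells out of 1146 cells that passed and 1536 wells in all, namely 29, 27, 29 and 29 cells in the 4 plates. They were set against the 571 low-score cells, which are the 50% of each plate with the lowest score, and the 461 cells between these classes are called intermediate cells.

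All 4 plates held cells of the same line and culture. Circular patches of 10000 cells were seeded on fibronectin-coated dishes and grown for 6 days in medium with serum, EGF, hydrocortisone, cholera toxin and insulin. In patches of the 2 low-resolution replicates, concentric rings of 1000 to 1500 μm were phototagged with photoactivatable Janelia Fluor dyes. In patches of the 2 high-resolution replicates, the outermost 250 μm, the next 250 μm and the inside were separated. Live single cells were sorted into 384-well plates, with 1 plate per replicate, and sequenced by SORT-seq. This method primes on poly(A) and counts transcripts by unique molecular identifiers (UMIs). Which ring a cell came from was not used, so every value pools the sorted cells of a plate over the rings, in the proportions that the sort gave. Values for the 4 plates are always given in the order low-resolution replicates 1 and 2, then high-resolution replicates 1 and 2.

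G2 is the gap between the end of DNA replication and mitosis. Cyclin B1 accumulates in G2 and, with the kinase CDK1, drives entry into mitosis, after which the anaphase-promoting complex marks cyclin B1 and securin for destruction so that chromatids separate. Most genes of this programme are switched on together late in the cycle and silenced after division, and MCF10A cells divide rapidly in the presence of EGF while space is left on the dish.

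The score separated a small tail of cells from a large body near 0. The median score of the G2/M cells was 27.7, 23.4, 29.2 and 28.3 counts per 10000 in the 4 plates, and the highest score of a low-score cell was 0.893, 0.677, 1.89 and 2.06. Among the low-score cells, 44 of 145, 57 of 135, 26 of 145 and 28 of 146 had no count of any of the 8 markers. The limit itself fell on a slope and not in a gap. The lowest G2/M cell had a score of 14.9, 14.8, 22.4 and 23.6, and the next cell below it 14.8, 14.3, 22.1 and 23.3. Since the highest 10% were taken from each plate, the limit lay higher in the high-resolution plates. At 1 common limit of 19.5 counts per 10000, the chosen share would have been 8.25% (exact binomial, 95%: 5.36 to 12) and 6.64% (3.98 to 10.3) of the low-resolution cells, against 11.3% (7.94 to 15.6) and 13.7% (9.94 to 18.1) in the high-resolution plates. These intervals cover counting error only. The intervals of all 4 plates overlapped, and the share was not tested between resolutions, since the rule used the score.

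**Figure D1:**
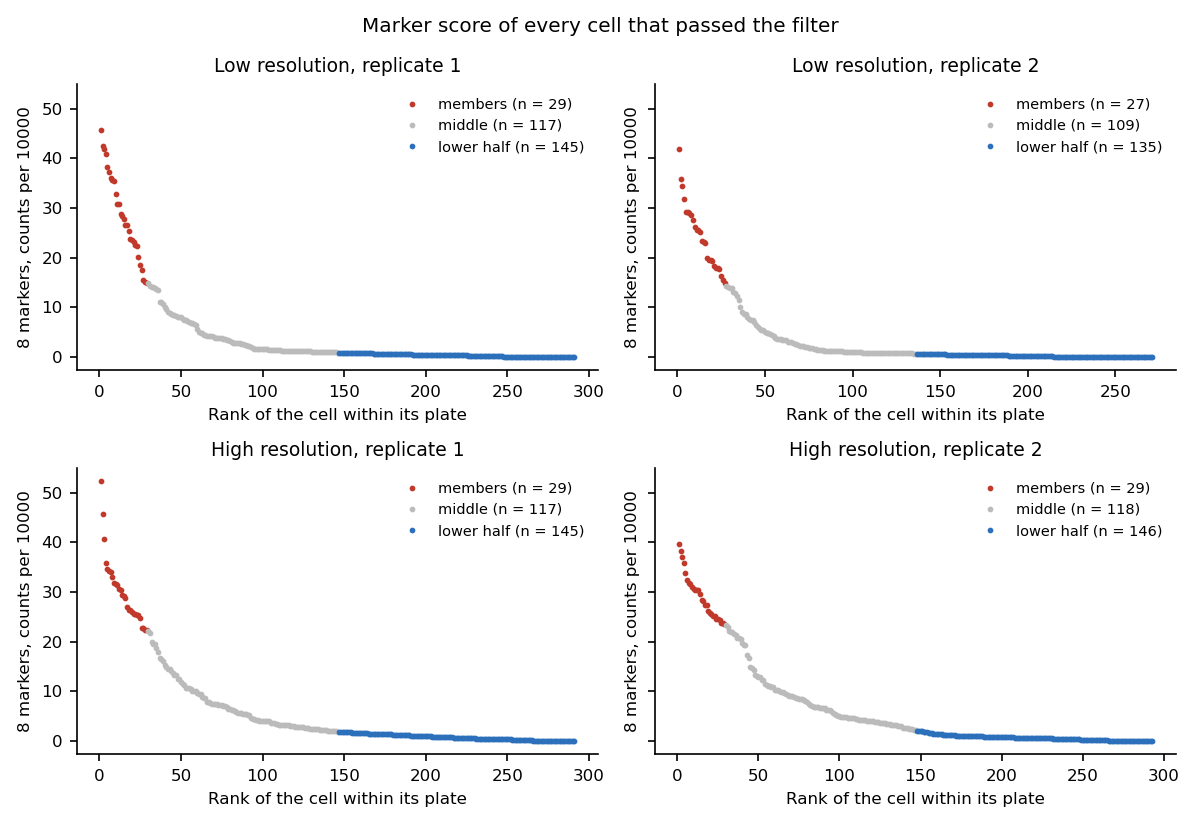
Marker score of every cell (vertical axis, counts per 10000) against its rank within its plate (horizontal axis), 1 panel per plate, coloured by class (members, the G2/M cells, in red, middle, the intermediate cells, in grey, and the low-score cells in blue). The G2/M cells are the highest 10%, and the lowest of them had scores between 14.8 and 23.6, with no gap at the limit in any of the 4 plates.

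The proximal promoters of the markers are shown because these genes were the ones that chose the cells and rose together. The 150 bases before the annotated start are printed from RefSeq (GRCh38.p14), for the 6 markers found in the promoter table used, while AURKA and UBE2C were not matched. Capitals mark TTTGAA and TTTAAA, the letters of the CHR (cell cycle genes homology region), and CCAAT, the letters of the CCAAT box, each searched on both strands, so that CCAAT on the other strand reads ATTGG and TTTGAA reads TTCAAA. The windows lie at chr5:69167000-69167149 (CCNB1, plus strand), chr16:23678739-23678888 (PLK1, plus), chr1:43358831-43358980 (CDC20, plus), chr1:214603045-214603194 (CENPF, plus), chr17:40417897-40418046 (TOP2A, minus) and chr5:163460482-163460631 (HMMR, plus).
CCNB1: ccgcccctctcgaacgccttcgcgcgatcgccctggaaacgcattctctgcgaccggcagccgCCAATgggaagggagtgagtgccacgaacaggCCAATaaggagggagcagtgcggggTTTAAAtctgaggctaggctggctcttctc
PLK1: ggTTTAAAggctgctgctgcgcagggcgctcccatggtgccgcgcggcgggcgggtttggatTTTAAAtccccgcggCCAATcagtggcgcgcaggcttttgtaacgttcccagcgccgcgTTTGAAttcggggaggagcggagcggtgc
CDC20: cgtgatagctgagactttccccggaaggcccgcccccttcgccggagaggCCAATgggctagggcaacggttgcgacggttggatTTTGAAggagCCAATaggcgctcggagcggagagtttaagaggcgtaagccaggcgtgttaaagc
CENPF: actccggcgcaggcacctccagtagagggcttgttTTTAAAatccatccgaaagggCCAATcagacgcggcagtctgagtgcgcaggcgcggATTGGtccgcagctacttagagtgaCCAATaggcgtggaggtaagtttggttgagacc
TOP2A: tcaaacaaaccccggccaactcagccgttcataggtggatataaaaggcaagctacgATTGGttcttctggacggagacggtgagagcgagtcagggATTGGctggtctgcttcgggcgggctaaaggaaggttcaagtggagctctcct
HMMR: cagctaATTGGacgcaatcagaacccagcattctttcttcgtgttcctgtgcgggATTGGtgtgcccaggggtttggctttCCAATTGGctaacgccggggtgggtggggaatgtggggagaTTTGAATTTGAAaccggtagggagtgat

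CHR letters were found in 5 of these 6 windows and CCAAT letters in 6 of 6, with 2 or more CCAAT matches in 5. PLK1 held 3 CHR matches and 1 CCAAT, and HMMR held 2 adjacent CHR matches and 4 CCAAT matches, of which a pair overlaps in CCAATTGG. The TOP2A window held 2 CCAAT matches and no CHR letters, which says only that these letters are not in these 150 bases. Of all 35116 promoters of the same length, 12.6% held CHR letters, 23.5% CCAAT, 5.97% at least 2 CCAAT and 3.25% both motifs. In the promoters of the G2/M genes used for cell cycle scoring, a list that holds 6 of the 8 markers, 51.7% of 58 held CHR letters and 43.1% both motifs. The other mitotic lists ranged from 54.5% of 22 promoters with CHR letters for cytokinesis to 21.4% of 42 for the spindle checkpoint, 21.1% of 38 for the kinetochore and 18.1% of 83 for the further periodic G2/M genes. Of 43 S phase promoters, 11.6% held CHR letters and 53.5% CCAAT. CHR letters were in 8.96% of 67 promoters of DNA replication and repair genes. They were in 21.2% of 33 promoters of G1 cyclins, CDK inhibitors and arrest genes, close to the kinetochore and spindle checkpoint lists. CHR letters were in 9.25% of the promoters of genes called higher in the G2/M cells, in 8.3% of those of genes called lower and in 7.85% of those of all genes tested. A match is a description of the letters and not of a bound site.

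The 8 markers are given as a description, since they chose the cells. CCNB1, which encodes cyclin B1, was at 5.36, 4.78, 5.08 and 4.92 counts per 10000 in the summed G2/M cells, against 0.0684, 0.0470, 0.184 and 0.198 in the low-score cells. Its level in the intermediate cells was 0.672, 0.699, 1.30 and 1.64, so the intermediate cells lay between the other classes in each plate. TOP2A, the topoisomerase that untangles sister chromatids, was at 6.97, 4.35, 5.60 and 5.75 against 0.0825, 0.0214, 0.110 and 0.104. CENPF, a kinetochore protein that accumulates in G2, was at 6.05, 4.19, 5.02 and 4.66 against 0.0401, 0.0299, 0.108 and 0.0703. The mitotic kinase PLK1 was at 2.98, 3.25, 5.10 and 3.84 against 0.0354, 0.0385, 0.0940 and 0.0833. No plate of one class overlapped a plate of the other for any of these genes, which a rule that sums them favours.

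The other markers were less abundant. UBE2C, the ubiquitin-conjugating enzyme of the anaphase-promoting complex, was at 2.37, 1.86, 2.83 and 3.04 counts per 10000 in the G2/M cells, and CDC20, an activator of that complex, was at 1.76, 2.29, 2.27 and 2.41. AURKA, the centrosomal Aurora kinase, was at 1.84, 1.97, 2.13 and 2.51, and HMMR, a spindle-associated protein, at 1.99, 1.89, 2.48 and 1.80. In low-score cells the level of these 4 genes ran from 0.0141 (UBE2C, low-resolution replicate 1) to 0.117 (CDC20, high-resolution replicate 1). The markers were close to universal among the G2/M cells. CCNB1, PLK1, CDC20 and HMMR had a UMI in 114 of 114 G2/M cells, and UBE2C, with the fewest, in 25 of 29, 23 of 27, 28 of 29 and 29 of 29. In low-score cells CCNB1 had a UMI in 18.6%, 13.3%, 40.0% and 38.4% of cells. After every cell was thinned to 10000 UMIs, those shares were 8.45%, 2.27%, 18.9% and 15.1%, against 100%, 96.3%, 100% and 96.6% of the G2/M cells. The wells with fewer than 2000 features, which hold little RNA of their own, had CCNB1 at 0.101, 0.185, 0.471 and 0.985 counts per 10000, above the low-score cells in each plate, so single CCNB1 UMIs in low-score cells cannot be told apart from free RNA. In low-resolution replicate 2 the failed wells were lower for CDC20 (0.0264 against 0.0556) and UBE2C (0 against 0.0171), and in replicate 1 for HMMR (0.0254 against 0.0306).

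Choosing the cells without the marker in question moved its level in the low-score cells more than in the G2/M cells, except for UBE2C in high-resolution replicate 2. With the other 7 markers as the rule, CCNB1 was at 5.02, 4.56, 4.69 and 4.81 counts per 10000 in the chosen cells and at 0.0982, 0.0988, 0.219 and 0.252 in the low-score cells. Its ratio between the classes, 78.4, 101.8, 27.6 and 24.8 with all 8 markers, was then 51.1, 46.2, 21.4 and 19.1. The largest drop of a ratio was that of TOP2A in low-resolution replicate 2, from 203.7 to 59.5, where its low-score level went from 0.0214 to 0.0659. When CCNB1, CENPF, TOP2A and HMMR or the other 4 markers were used alone, the 2 rules picked the same cells for 26 of 29, 21 of 27, 24 of 29 and 21 of 29.

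**Figure D2:**
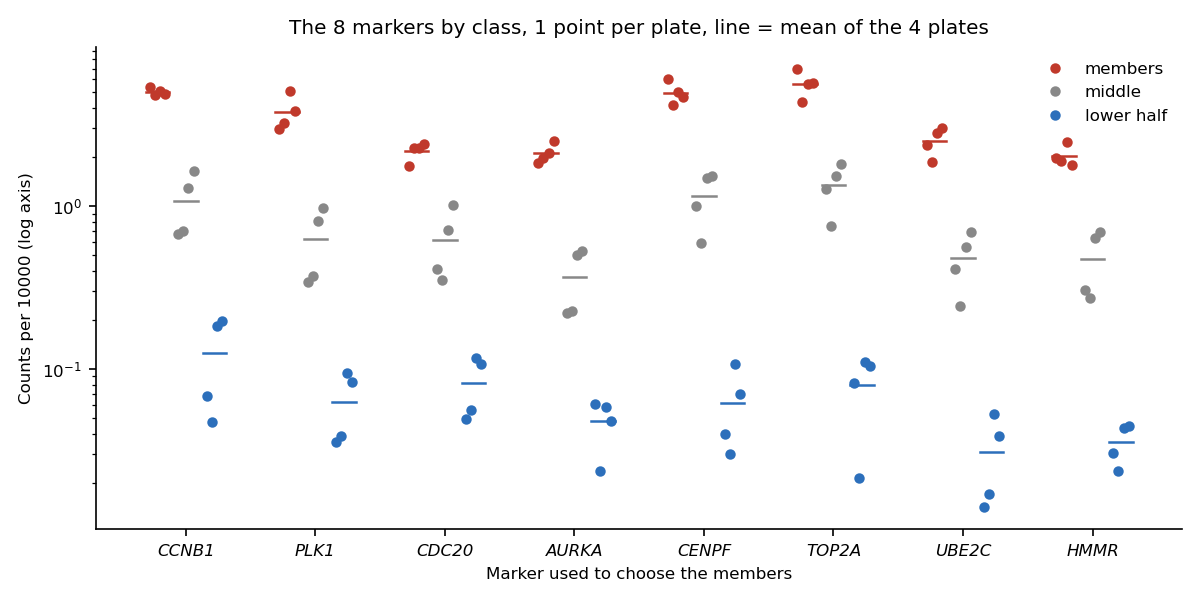
Level of each of the 8 markers (vertical log axis, counts per 10000 of the summed cells of a class) in the G2/M cells (called members in the key, red), the intermediate cells (middle in the key, grey) and the low-score cells (blue), with 1 point per plate and a line at the mean of the 4 plates. The intermediate cells lie between the other classes for every marker, which is favoured by classes cut from the sum of these markers.

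Within the G2/M cells, the markers varied less together than across all cells. Over all cells of a plate, Spearman's rho for the 28 pairs of markers had means over the 4 plates of 0.51 to 0.69. Across the 27 to 29 G2/M cells of a plate, the mean rho of a pair ran from -0.17 to 0.55, and 7 of 28 pairs were above 0 in all 4 plates. CENPF and TOP2A followed each other most, with a mean rho of 0.55 (0.34 to 0.75). PLK1 and AURKA had a mean rho of 0.34 (0.22 to 0.42), and CCNB1 and CDC20 of 0.34 (0.00 to 0.57). CDC20 and TOP2A were at the other end, at -0.17 (-0.56 to 0.04). These points share a plate, a sequencing depth and the sum that chose the cells, so the values describe the cells only.

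Across all cells of a plate, the gene whose level followed the marker score most was PRC1, a microtubule bundler of the central spindle, with a mean rho of 0.76 over the 4 plates. It was followed by MKI67, which encodes the proliferation antigen Ki-67 (0.74), and by ANLN, which scaffolds the contractile ring (0.74). PBK, CCNB2, CEP55, TUBB, CKS1B, TUBA1B and STMN1 completed the first 10, at 0.73 to 0.70. Of the 40 genes with the highest rho among the 8024 that 20% or more of the cells in each plate had, 37 belonged to the cell cycle lists that were left out of the tests. The 3 others were HMGB1, a chromatin protein (0.69), DIAPH3, a formin (0.66), and CSE1L, a nuclear export receptor (0.64).

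The remaining cell cycle genes are described without a test as well, and the 8 markers that chose the cells are left out of the counts and sums that follow. Of 356 listed cell cycle genes besides the markers, 307 were higher in the G2/M cells than in the low-score cells in all 4 plates and 8 were lower in all 4. All 23 genes of cytokinesis and the chromosome passenger complex with counts were higher in all 4 plates, and their summed level was 22.8, 27.6, 16.7 and 15.9 times that of the low-score cells. KIF20A, the kinesin that carries the passenger complex to the midzone, was at 2.13 ± 0.24 (SD, n = 4 plates) against 0.0433 ± 0.0095 counts per 10000, and ANLN at 7.97 ± 0.36 against 0.403 ± 0.110. Of 36 spindle kinesins and microtubule regulators, 34 were higher in all 4 plates, with summed ratios of 14.5, 16.0, 10.5 and 10.2. Kinetochore and centromere genes, with 37 of 37 higher in all 4 plates, had ratios of 6.21, 6.02, 4.53 and 4.48, with CENPE, the kinetochore motor, at 1.41 ± 0.34 against 0.0661 ± 0.0222. Each of these ratios was lower in both high-resolution plates than in both low-resolution plates. For cytokinesis the summed level was 33.2, 30.3, 33.7 and 31.3 counts per 10000 in the G2/M cells. In the low-score cells it was 1.45, 1.10, 2.02 and 1.98, so there it was the low-score level that was higher at high resolution. The highest score of a low-score cell was also higher in the high-resolution plates.

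Cyclins, CDKs and mitotic entry genes, without CCNB1, PLK1 and AURKA, stood at 5.61 to 6.09 times the level of the low-score cells, with 25 of 28 higher in all 4 plates. CCNB2 was at 3.31 ± 0.20 against 0.112 ± 0.057 counts per 10000, and CDK1, the catalytic partner of the B-type cyclins, at 2.90 ± 0.39 against 0.0826 ± 0.0481. The genes of the spindle checkpoint and the anaphase-promoting complex had lower ratios as a sum, at 2.67 to 2.95 times without CDC20 and UBE2C, with 21 of 28 higher in all 4 plates. The most abundant transcripts of the programme were tubulins. TUBA1B was at 33.3 ± 1.6 counts per 10000 in the G2/M cells and 5.48 ± 2.43 in the low-score cells, TUBB at 18.5 ± 2.4 against 3.35 ± 1.14, and TUBA1C at 17.3 ± 2.6 against 2.58 ± 0.31. The alpha tubulin genes are near-identical in places, so reads could have been split between them. Among G1 cyclins, CDK inhibitors and arrest genes the sum hardly moved, with ratios of 1.04, 0.998, 0.944 and 0.973. CDKN1A, which encodes the CDK inhibitor p21, was at 3.15 ± 1.04 against 4.93 ± 0.95 and lower in 4 of 4 plates.

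S phase genes were highest in the intermediate cells. Their summed level was 20.7, 19.5, 18.6 and 20.6 counts per 10000 in the G2/M cells, 26.1, 21.2, 31.7 and 33.3 in the intermediate cells and 5.53, 3.97, 8.95 and 7.23 in the low-score cells. RRM2, a subunit of ribonucleotide reductase, was the most abundant of them in the G2/M cells, at 3.64 ± 0.58 against 0.369 ± 0.258, followed by PCNA, the replication clamp, at 1.82 ± 0.12 against 0.731 ± 0.219. The G2/M cells therefore carried S phase transcripts at 2.08 to 4.92 times the level of the low-score cells, and the score alone does not separate late S phase, G2 and mitosis. TYMS, a further S phase marker, was listed at 0 to 0.0112 counts per 10000 in both classes.

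Markers of the line were present in the G2/M cells. The basal keratin KRT5 was at 16.7, 18.2, 16.1 and 18.4 counts per 10000. KRT17 was at 2.11, 3.31, 3.84 and 3.65, against 5.17, 6.26, 6.66 and 7.42 in the low-score cells. KRT14, another basal keratin, was at 0.519, 0.957, 2.81 and 0.495 against 1.84, 0.904, 3.10 and 1.79. In the test described below KRT14 was called lower (log2 -0.88), and that call was lost under DESeq2. EPCAM, CDH1 and VIM, also taken as markers of the line, are given below. Markers of other cell types were near 0: the 21 with a row summed to 0.587 to 0.738 counts per 10000 in the G2/M cells and 0.944 to 1.14 in the low-score cells, and PTPRC, CD3E and CD3D, which define blood and T cells, were at 0 in the G2/M cells of all 4 plates. Doublets were not called beyond the limit of 9000 features, and 5, 4, 0 and 5 G2/M cells had over 7500 features.

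The G2/M cells yielded more RNA. Their median was 43787, 41904, 40555 and 61802 UMIs per cell, against 26245, 30578, 29548 and 33817 in the low-score cells, higher in 4 of 4 plates by 0.63 ± 0.21 on the log2 scale (SD, n = 4; exact sign-flip permutation test over plates, 2-sided p = 0.13, the smallest that 4 plates can give). Relative to the spike-in RNA added to each well, the median count of gene UMIs was 115, 105, 152 and 173 per spike-in UMI in the G2/M cells and 67.4, 67.9, 107 and 91.0 in the low-score cells, a ratio of 1.64 from the mean log2 difference of 0.71 ± 0.18 (p = 0.13, same exact test). The mitochondrial share of counts was 27%, 28.7%, 28.0% and 25.4% against 32.1%, 32.7%, 31.6% and 31.2%, a difference of -4.64 ± 1.00 percentage points and lower in 4 of 4 plates (p = 0.13, same exact test). Depth and the mitochondrial share thus moved with the classes, and their part in the gene results was not tested. More genes were seen at equal depth as well: at 10000 UMIs the G2/M cells had a median of 3157, 3062, 3068 and 3103 genes, against 2964, 2898, 2899 and 2918.

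For the tests, the counts of the G2/M cells and of the low-score cells were summed per plate, and the cell cycle genes were left out before the fit. Each plate gives both sums and is a term in the fit, so the plate is the replicate. The p-values rest on how the ratio between the classes varied over the 4 plates, with the variation of a gene estimated partly from all genes. Of 9958 genes tested with edgeR, 1828 (18.4%) were higher and 1815 (18.2%) lower in the G2/M cells at an adjusted p under 0.05, or 36.6% in either direction, and the median log2 fold change of all genes was -0.01. Counts for a group of genes below have to be read against these shares, since about 1 gene in 5 moved in each direction. The classes were set by cell cycle genes of the same cells, so a gene that varies with the cycle but was in none of the left-out lists may differ for that reason alone. A difference from the low-score cells need not set the G2/M cells apart from the intermediate cells. Of 115 called genes that the naming rule gave, the intermediate cells lay between both classes in all 4 plates for 60. They lay past the G2/M cells in at least 1 plate for 49 and in at least 2 plates for 21, which was so in all 4 plates for CLDN4 and TUBGCP4 and in 3 for MUC1, SNHG1, RPL14 and RPS2. They lay on the other side of the low-score cells in at least 1 plate for 8. With low-score cells of like depth as the comparison, a choice made after seeing the data, 1005 genes rose and 1047 fell among 8241.

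The largest rises outside the left-out lists included genes known from division and DNA synthesis. DIAPH3, a formin that nucleates actin filaments and acts in cytokinesis, was at 0.867, 0.806, 0.923 and 0.844 counts per 10000 in the G2/M cells and 0.0377, 0.0299, 0.0881 and 0.0777 in the low-score cells. Its log2 fold change was 3.83 ± 0.18 (SE; adjusted p = 9.64e-13), and no plate of one class came near a plate of the other. REEP4, which clears endoplasmic reticulum from mitotic chromosomes, was at 1.48, 1.49, 1.47 and 1.53 against 0.215, 0.239, 0.298 and 0.263 (log2 2.52 ± 0.11, adjusted p = 2.15e-13). RNASEH2A, a subunit of the RNase H2 that removes ribonucleotides from DNA, rose by 2.32 ± 0.18, and DTYMK, which makes dTDP for DNA synthesis, by 2.25 ± 0.13. NDC1, a membrane anchor of the nuclear pore, rose by 2.15 ± 0.14 and NRM, a nuclear envelope protein, by 2.03 ± 0.16. RCCD1 (2.24 ± 0.19), TCOF1, a nucleolar protein (2.03 ± 0.14), WHSC1, a histone methyltransferase also called NSD2 (1.98 ± 0.13), and NMU, the secreted peptide neuromedin U (1.91 ± 0.18), completed the 10 largest rises. For each of the 10, the 4 plates of the G2/M cells lay above the 4 plates of the low-score cells. This was so for 1277 of the 1828 genes called higher, and the reverse for 935 of the 1815 called lower. The intermediate cells also lay above the low-score cells of their plate in all 4 plates for each of the 10. In both high-resolution plates their level of TCOF1, 0.866 and 0.929 counts per 10000, was above that of the G2/M cells, 0.797 and 0.816, as was that of RNASEH2A at 0.738 against 0.658 in high-resolution replicate 2. The 10 genes were chosen for their rank, from 901 genes that met the rule on level and direction.

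Of the 10 largest falls, PSCA, a surface antigen of glandular epithelia, was the most abundant in low-score cells. It was at 4.12, 4.80, 4.91 and 2.06 counts per 10000 in the G2/M cells and 24.3, 25.2, 11.8 and 12.2 in the low-score cells (log2 -2.23 ± 0.13, adjusted p = 1.80e-11), and these classes did not overlap. The intermediate cells were at 12.9, 13.9, 3.88 and 3.06, below the G2/M cells in high-resolution replicate 1. SPRR1B, a cornified envelope precursor, was at 0.0546, 0.178, 0.227 and 0.0900 against 1.69, 0.858, 1.02 and 0.661 (log2 -2.98 ± 0.22, adjusted p = 8.61e-10). HSD11B2, the enzyme that inactivates cortisol, was at 4.36, 3.14, 0.924 and 0.439 against 8.36, 8.31, 4.69 and 4.91 (log2 -1.91 ± 0.21). The level was lower in the high-resolution plates in every class, and in the intermediate cells it was 5.32, 7.54, 1.30 and 1.06. The difference of the ratio between G2/M and low-score cells is tested below. The others were IFITM10 (-2.25 ± 0.20), TCN1, a vitamin B12 carrier (-2.02 ± 0.18), the kallikrein protease KLK6 (-1.98 ± 0.16), RARRES1 (-1.96 ± 0.12), WFDC2 (-1.95 ± 0.18), CALCOCO1 (-1.94 ± 0.16) and PADI2, which converts arginine to citrulline (-1.85 ± 0.15).

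**Figure D3:**
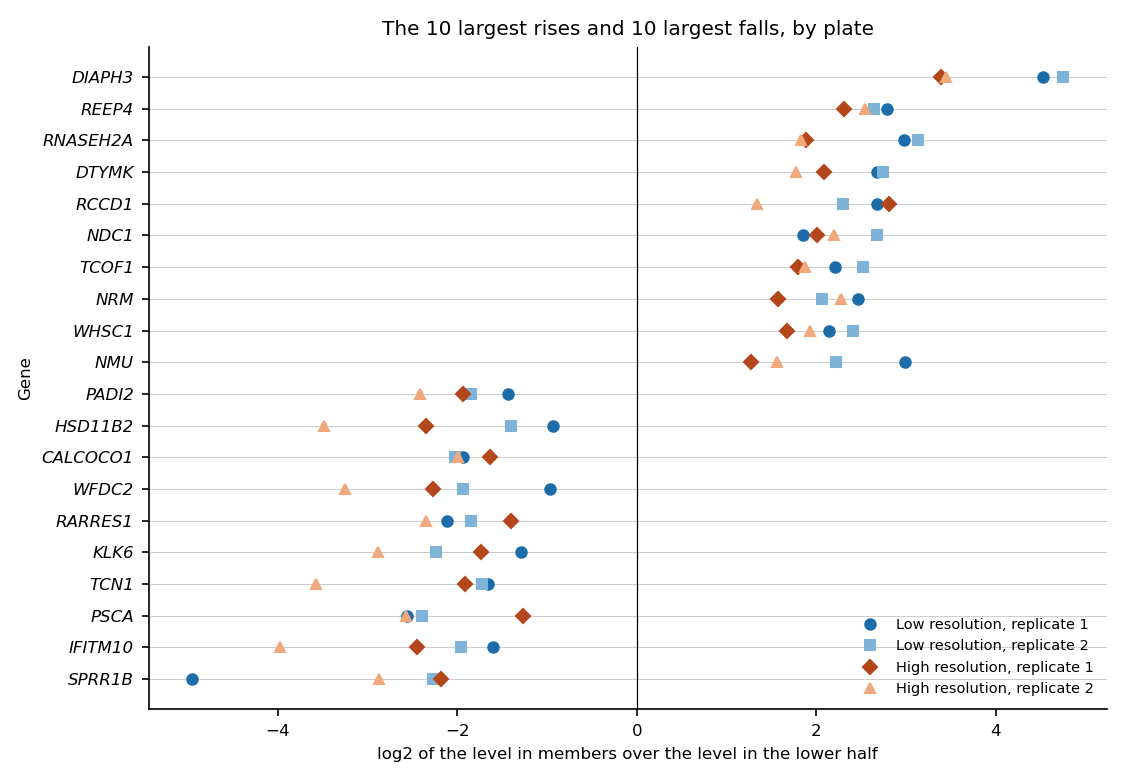
Log2 ratio of the level in the G2/M cells to that in the low-score cells of the same plate (horizontal axis) for the 10 largest rises and 10 largest falls outside the left-out cell cycle lists, with 1 point per plate. The rule that named the 20 genes required the 4 plates to lie on the same side of 0. DIAPH3 lies at 3.39 to 4.75.

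Genes of the nuclear envelope and nuclear pores rose together. Of 35 tested, 26 rose and none fell, with a median log2 fold change of 0.70 beside -0.01 for all genes. The envelope and its pores are dismantled and rebuilt in each mitosis. Besides NDC1, NUP37 rose by 1.82 ± 0.16 on the log2 scale, from 0.147 ± 0.056 to 0.525 ± 0.100 counts per 10000, and NUP205, a scaffold nucleoporin of the inner ring, by 1.56 ± 0.14. SYNE2, which links the nucleus to the cytoskeleton, rose by 1.30 ± 0.14, and LMNA, which encodes lamin A and C, by 0.53 ± 0.08. With low-score cells of like depth, 21 of 35 rose, and with every cell thinned to 10000 UMIs, 13 of 33 rose, with none falling in either.

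Splicing factors also rose, 23 of 31 with none falling and a median of 0.59. SRSF2 was at 4.07, 4.35, 4.91 and 4.89 counts per 10000 in the G2/M cells and 1.72, 1.75, 2.24 and 2.13 in the low-score cells (log2 1.19 ± 0.08, adjusted p = 5.99e-11), so its classes did not overlap. SRSF3 (1.16 ± 0.08) and SRSF7 (1.17 ± 0.10), which like SRSF2 are SR proteins that mark exons, and SFPQ, a paraspeckle protein (0.95 ± 0.08), rose likewise. With cells of like depth, 22 of 31 rose. Of 28 heat shock proteins and chaperones, 19 rose and 3 fell, with a median of 0.44. HSPA8, the constitutive HSP70, was at 15.7, 21.5, 24.1 and 27 against 9.38, 10.1, 13.6 and 13.6 (log2 0.88 ± 0.07), and HSP90AA1 rose by 0.84 ± 0.07. CCT5, a subunit of the chaperonin that folds tubulin and actin, rose by 0.94 ± 0.09. The 3 that fell were DNAJB9 (-1.27 ± 0.12), HSPA5 and HSPB1, of which DNAJB9 and HSPA5 serve the endoplasmic reticulum.

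Of 17 tubulins, gamma-tubulin complex members and tubulin cofactors outside the left-out lists, 5 rose and 1 fell, with a median of 0.21. TUBG1, the gamma tubulin that nucleates microtubules at centrosomes, was at 0.710, 0.913, 1.06 and 0.928 counts per 10000 in the G2/M cells and 0.219, 0.156, 0.321 and 0.337 in the low-score cells (log2 1.78 ± 0.14, adjusted p = 1.72e-09). Its paralog TUBG2 was the 1 that fell, by 0.74 on the log2 scale (adjusted p = 0.0272). It was lower in 3 of 4 plates, and its call was lost in 10 of 19 settings, DESeq2, cells of like depth and the fits without low-resolution replicate 2 or high-resolution replicate 2 among them. Without low-resolution replicate 1, 3 of these 17 genes rose, and without high-resolution replicate 1, 2 fell. TUBA4A, an alpha tubulin, rose by 0.91 ± 0.10 and TUBGCP3, of the gamma-tubulin ring complex, by 1.00 ± 0.21. Among 35 genes of the actin cortex and myosins, 14 rose and 5 fell (median 0.08). Here DIAPH3 led, and ACTN1, an actin crosslinker, rose by 0.81 ± 0.08 and the actin-binding PFN1 by 0.59 ± 0.07, while MYH14, a nonmuscle myosin heavy chain, fell by 1.92 on the log2 scale. MYH10, another nonmuscle myosin heavy chain, had a log2 fold change of 0.91. The number that rose was 9 with cells of like depth, among 34 tested, and 9 without high-resolution replicate 2. These need not be the same genes. Without low-resolution replicate 2, 3 fell.

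Squamous differentiation genes formed the list with the lowest median, -1.52, and 14 of 20 fell with none rising. SPRR3 (-3.70 ± 0.30) and SPRR1B are precursors of the cornified envelope. SPRR3 had 19 counts in all G2/M cells together and 815 in the low-score cells. SERPINB2, a protease inhibitor of stratified epithelia, was at 0.382, 0.588, 0.336 and 0.503 counts per 10000 against 1.27, 1.52, 1.83 and 1.68 (log2 -1.83 ± 0.13), and SLPI, a secreted protease inhibitor, at 4.88, 3.97, 3.31 and 1.72 against 10.0, 13.0, 5.91 and 5.93 (log2 -1.37 ± 0.11). Both genes were lower in the G2/M cells of 4 of 4 plates without overlap. The summed level of the list was 28.2, 25.8, 15.9 and 7.11 in the G2/M cells, 36.0, 38.4, 15.0 and 12.6 in the intermediate cells and 67.5, 61.8, 33.7 and 34.7 in the low-score cells. The intermediate cells thus lay below the low-score cells in each plate, and above the G2/M cells in 3 of 4. The SPRR genes are close paralogs, so reads could have been split between them.

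Among keratins, 7 of 16 fell and 1 rose (median -0.22). KRT17 was at 2.11, 3.31, 3.84 and 3.65 against 5.17, 6.26, 6.66 and 7.42 counts per 10000 (log2 -1.04 ± 0.08, adjusted p = 9.87e-10). KRT10, a keratin of suprabasal cells, fell by 1.33 on the log2 scale, KRT16 by 1.22 and KRT23 by 2.41. KRT18, a keratin of simple epithelia, was the 1 that rose, with a log2 fold change of 0.65, and its call was lost with cells of like depth and in thinned cells. Without high-resolution replicate 1, 2 keratins rose. Of 20 desmosome and hemidesmosome genes, 12 fell and 2 rose (median -0.25), and 1 rose without low-resolution replicate 1. PERP, a desmosomal p53 target, fell from 11.7, 11, 7.04 and 7.14 to 4.80, 6.16, 4.48 and 3.12 counts per 10000 (log2 -1.03 ± 0.08), PPL, the desmosomal linker periplakin, had a log2 fold change of -0.94 ± 0.10, and the cadherins DSG3 and DSC2 of -0.73 ± 0.11 and -0.74 ± 0.12. Of 22 tight and adherens junction genes, 8 fell and none rose (median -0.19), with the claudin CLDN1 at -1.36 ± 0.16. With cells of like depth, 4 of 19 of these fell. Of 14 integrins tested, 5 fell and 3 rose (median -0.18), and ITGB8 (-0.75 ± 0.09) and ITGB6 (-1.09 ± 0.14), partners of the alpha v subunit that bind latent TGF-beta, were among the falls.

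The epithelial and mesenchymal gene lists that the study used for its score of epithelial-to-mesenchymal transition (EMT) were counted in the same way. Of 53 epithelial genes tested, 29 fell and 3 rose, with a median of -0.44. CD24, a surface glycoprotein, was at 11.1, 9.60, 12.6 and 5.24 against 21.3, 21.6, 18.1 and 16.3 counts per 10000 (log2 -1.10 ± 0.10, adjusted p = 1.55e-08), and the mucin MUC1 had a log2 fold change of -0.91 ± 0.08. The 3 that rose were ESRP1, an epithelial splicing regulator (0.79 ± 0.11), SORD (0.54 ± 0.16) and EPCAM. The call of SORD was lost in 10 of 19 settings, among them DESeq2, cells of like depth and the fits without either low-resolution plate. With cells of like depth, 18 of 45 fell. The median summed level of the epithelial list per cell was 56.5, 67.3, 53.7 and 46.2 counts per 10000 in the G2/M cells and 82.6, 92.6, 75.3 and 73.1 in the low-score cells, lower in 4 of 4 plates by 0.54 ± 0.09 on the log2 scale (exact sign-flip permutation test, p = 0.13).

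Of 50 genes tested in the mesenchymal list, 10 (20%) rose and 11 (22%) fell, with a median of -0.01, shares near the 18.4% and 18.2% over all genes. With members chosen on CCNB1, CENPF, TOP2A and HMMR, 14 of 49 rose and 6 fell, and with members chosen on PLK1, CDC20, AURKA and UBE2C, 6 of 49 rose and 15 fell. In the cells chosen on all 8 markers, the summed level of the list per cell was higher in 2 of 4 plates (log2 difference 0.07 ± 0.14; exact sign-flip permutation test, p = 0.5). FN1, which encodes fibronectin, was at 3.47, 2.55, 7.04 and 4.89 against 4.74, 5.47, 11.3 and 12.3 counts per 10000 (log2 -0.93 ± 0.10, adjusted p = 1.42e-07). The intermediate cells had FN1 at 6.33, 3.35, 4.86 and 4.58, below the G2/M cells in both high-resolution plates and above the low-score cells in low-resolution replicate 1. VIM, which encodes vimentin, was at 0.779, 0.522, 2.10 and 2.16 against 0.681, 0.639, 1.10 and 1.32 (log2 0.43 ± 0.13, adjusted p = 0.0112). It was higher in 3 of 4 plates, its call was lost under DESeq2 and without either high-resolution plate (0.27 without replicate 1 and 0.32 without replicate 2), and its fold change was -0.05 with cells of like depth. In both low-resolution plates the intermediate cells were above the G2/M cells for VIM (1.03 and 0.803), as they were in both high-resolution plates for EPCAM (1.12 and 1.13). CXCR4, a chemokine receptor, rose by 2.22 ± 0.37 from low levels, with 49 counts in all G2/M cells. EPCAM was at 1.30, 1.35, 1.02 and 0.895 against 0.903, 0.967, 0.782 and 0.795 (log2 0.36 ± 0.10, adjusted p = 0.00588), and this call was lost under DESeq2, in cells thinned to 10000 UMIs and without the cells over 7500 features, but not with cells of like depth. CDH1, which encodes E-cadherin, did not pass the test, at 0.615, 0.806, 0.395 and 0.371 against 0.901, 0.712, 0.462 and 0.467 (log2 -0.26 ± 0.12, adjusted p = 0.115).

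**Figure D4:**
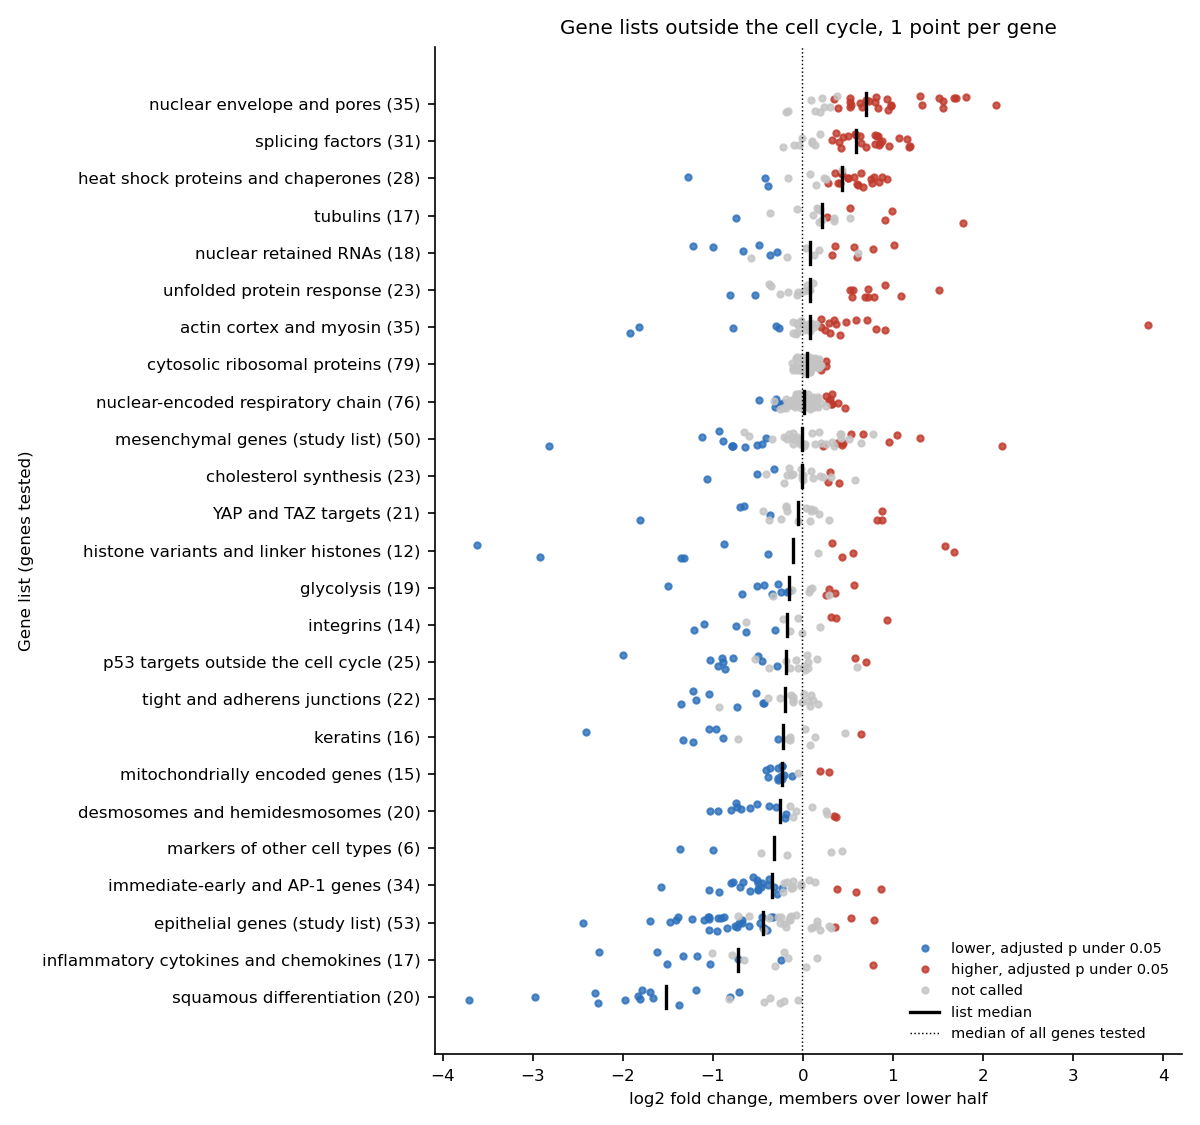
Log2 fold change of the G2/M cells over the low-score cells (horizontal axis) for each gene of the lists outside the cell cycle, 1 point per gene, coloured by its call, with a bar at the median of the list and a dotted line at the median of all genes tested. Splicing factors (23 of 31) and nuclear envelope and pore genes (26 of 35) rose with none falling, and squamous differentiation genes (14 of 20) fell with none rising, beside 18.4% and 18.2% of all genes.

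Immediate-early and AP-1 genes were mostly lower. Of 34, 20 fell and 3 rose (median -0.35), and with cells of like depth 9 of 33 fell. DUSP1, a phosphatase of MAP kinases, was at 1.11, 2.35, 1.85 and 1.99 against 2.02, 3.38, 2.71 and 3.33 counts per 10000 (log2 -0.70 ± 0.08), and ZFP36, which destabilizes mRNAs, had a log2 fold change of -1.04 ± 0.13. FOS was at -0.77 ± 0.11, and its call was lost with cells of like depth (-0.51). FOSL1, an AP-1 subunit, went the other way, at 1.52, 0.906, 2.58 and 3.30 against 0.724, 0.618, 1.56 and 1.48 (log2 0.86 ± 0.10, adjusted p = 4.46e-07). Of 17 inflammatory cytokines, chemokines and their targets, 8 fell and 1 rose (median -0.72), and without low-resolution replicate 1, 13 fell and 0 rose (median -1.06). Those that fell included IL1A (-1.62 ± 0.18) and IL1B (-2.26 ± 0.39), the interleukin 1 ligands, and SOD2, the mitochondrial superoxide dismutase (-1.03 ± 0.11). CXCL1 was the 1 that rose, with a log2 fold change of 0.78 (adjusted p = 0.0468) and a higher level in 3 of 4 plates, and its call was lost in 12 of 19 settings, DESeq2 and the fits without low-resolution replicate 1 or high-resolution replicate 1 among them. IL1B had 13 counts in all G2/M cells together. Of 25 p53 targets outside the cell cycle lists, 10 fell and 2 rose (median -0.18), and without either low-resolution plate 1 rose. TP53INP1 had a log2 fold change of -2.0 ± 0.22, ZMAT3 of -0.89 ± 0.09 and TP53I3 of -0.86 ± 0.11. Of 6 markers of other cell types that could be tested, CD14 (-1.37) and CD68 (-1.0) were called lower in the G2/M cells. None was called higher, while PECAM1 (0.31) and RGS5 (0.44) had positive fold changes that did not pass. The call of CD68 was lost without high-resolution replicate 2 and under DESeq2. The targets of YAP and TAZ, cofactors that respond to cell spreading, gave 3 rises (14.3%) and 4 falls (19.0%) among 21 (median -0.06). The shares over all genes were 18.4% and 18.2%, so the list did not stand out. AXL, a receptor kinase, was at 0.88 ± 0.11 and IGFBP3, an IGF-binding protein, at -1.80 ± 0.14.

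Histone genes went both ways. Of 12 tested, 5 rose and 6 fell. H2AFV, an H2A.Z variant, was at 2.56, 2.41, 2.17 and 2.38 counts per 10000 in the G2/M cells and 0.722, 0.691, 0.858 and 0.857 in the low-score cells (log2 1.58 ± 0.10, adjusted p = 3.66e-11). HIST1H2BD was at 0.0341, 0.0357, 0.0168 and 0.0337 against 0.467, 0.415, 0.317 and 0.305 (log2 -3.62 ± 0.24, adjusted p = 8.35e-11), with 18 counts in all G2/M cells. HIST2H2BE (-2.91 ± 0.22) and HIST1H2BK (-1.32 ± 0.13) fell too, as did the linker histones HIST1H1C (-1.35) and H1F0 (-0.87). HIST1H4C, a replication-dependent H4 gene, rose by 1.68. Most replication-dependent histone transcripts lack the poly(A) tail that SORT-seq primes on, and the clustered genes are near-identical, so these values cover only what was primed and assigned.

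Among nuclear retained and other long noncoding RNAs, 6 of 18 rose and 6 fell. MALAT1, a nuclear RNA of splicing speckles, was at 48.9, 19.5, 22.9 and 23.8 against 85.4, 51.1, 41.5 and 41.6 counts per 10000 (log2 -1.0 ± 0.07, adjusted p = 7.68e-10), and NEAT1, the scaffold of paraspeckles, at 8.63, 4.55, 6.23 and 4.36 against 19.0, 10.7, 11.7 and 12 (log2 -1.22 ± 0.08). Both were lower in 4 of 4 plates, MALAT1 with overlap between plates of different classes. The intermediate cells had MALAT1 at 52.2, 27.1, 21.5 and 16.7, below the G2/M cells in both high-resolution plates. SNHG1, a snoRNA host gene, rose by 1.01 ± 0.10. Of 15 mitochondrially encoded genes, 12 fell and 2 rose (median -0.23), in step with the lower mitochondrial share. MT-CYB, a subunit of complex III, was at 232, 256, 244 and 226 against 299, 323, 316 and 304 counts per 10000 (log2 -0.41 ± 0.04). MT-RNR1, a ribosomal RNA, had a log2 fold change of 0.19 and MT-ND6 of 0.29, and both calls were lost in 12 of 18 settings, with low-resolution replicate 2 or high-resolution replicate 2 left out and under DESeq2 among them. Without low-resolution replicate 1, 1 of these genes rose. The nuclear-encoded respiratory chain gave 8 rises (10.5%) and 6 falls (7.89%) among 76 genes (median 0.01), below the shares over all genes. It gave 5 rises without low-resolution replicate 1, 4 rises and 3 falls without replicate 2, and 2 falls without high-resolution replicate 2. Of 79 cytosolic ribosomal proteins, 4 rose and none fell (median 0.05). The number that rose was 1 without either low-resolution plate, 10 without high-resolution replicate 1 and 0 of 78 with cells of like depth.

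The effect was then compared between the resolutions, in an interaction of class and resolution with 2 plates each. Of 9958 genes, 18 (0.181%) had a different effect in the high-resolution plates at an adjusted p under 0.05, 4 higher and 14 lower, and 696 had an unadjusted p under 0.05. With DESeq2, 0 genes passed and 80 had an unadjusted p under 0.05, so these 18 rest on the edgeR test. The number was 3 in thinned cells, 4 with the highest 1 in 5 cells as members and 52 with the replicate number by class as a further term. Resolution and anything else that differed between these patches and plates cannot be told apart. HSD11B2 differed most clearly, with log2 ratios of -0.94, -1.40, -2.34 and -3.48 in the 4 plates (difference -1.75 ± 0.21, adjusted p = 8.17e-05). WFDC2, a secreted whey acidic protein family member, differed in the same direction (-1.34 ± 0.27), as did KRT16 (-1.06 ± 0.18).

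HIST1H4C rose in each plate but less at high resolution, with log2 ratios of 2.73, 2.08, 1.01 and 0.88 (difference -1.52 ± 0.23, adjusted p = 0.00171). HMGB1 (-0.59 ± 0.12), NMU (-1.20 ± 0.25), GGH, a folate hydrolase (-0.97 ± 0.18), and IL1R2, a decoy receptor of interleukin 1 (-1.85 ± 0.34), likewise had lower log2 ratios there. HMGB1 was at 11.3, 9.43, 9.61 and 10.9 counts per 10000 in the G2/M cells, against 2.96, 2.38, 3.91 and 3.89. The low-score levels of HMGB1, NMU and GGH were higher in both high-resolution plates, where the low-score cells also reached higher scores. The part of this in the differences was not tested. CTGF, a YAP target, and SOX4, a transcription factor, fell in each plate and fell less at high resolution, with differences of 0.81 ± 0.16 and 1.08 ± 0.22. For KRT5 the sign changed between resolutions, with levels of 16.7 and 18.2 against 15.8 and 16.9 counts per 10000 in the low-resolution plates and of 16.1 and 18.4 against 21.4 and 22.3 in the high-resolution plates (difference -0.46 ± 0.10, adjusted p = 0.0471).

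**Figure D5:**
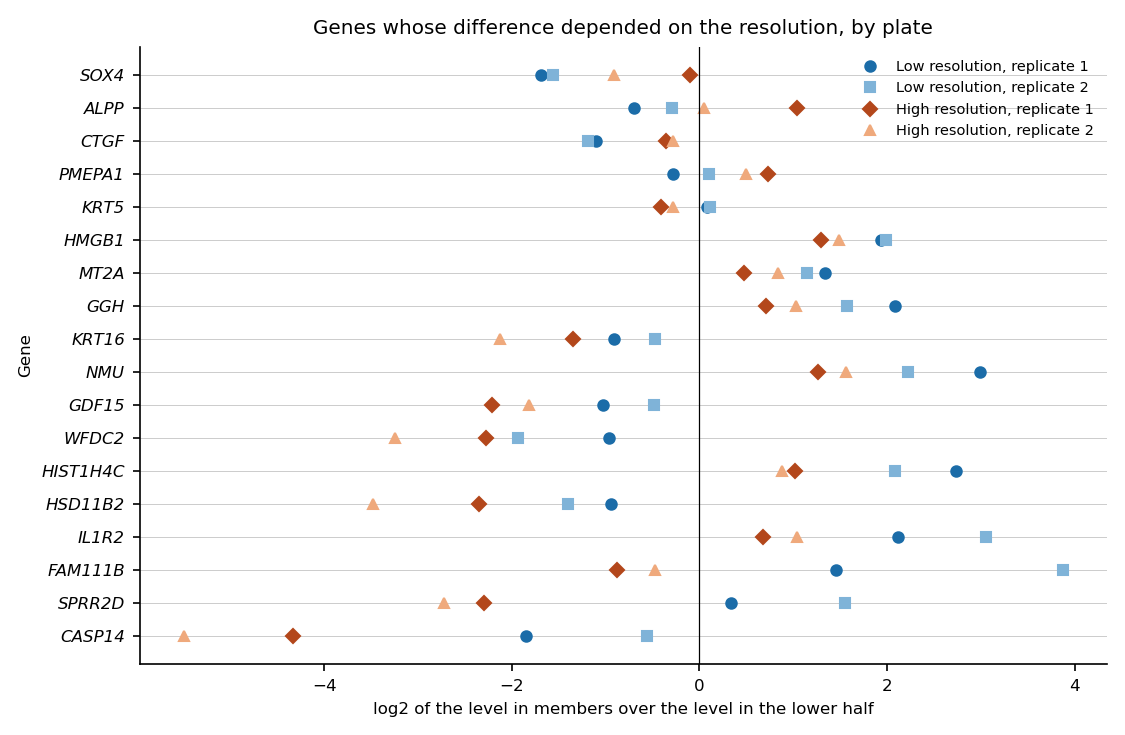
Log2 ratio of the level in the G2/M cells to that in the low-score cells of the same plate (horizontal axis) for the 18 genes whose effect differed between resolutions, with 1 point per plate low resolution in blue and high resolution in orange. HSD11B2 runs from -0.94 to -3.48 and HIST1H4C from 2.73 to 0.88.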

How the data were processed

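Cells of 4 SORT-seq plates were analysed, 2 plates per resolution. The values that the authors deposited are expected counts of transcripts, that is UMIs after a correction for repeated draws from 4096 sequences, with no scaling and no pooling of wells. Undoing that correction gave whole UMIs (tolerance 1e-09), which were used for thinning. The submitters' processing notes name STAR 2.7.3a, Seurat 4 and hg38. The barcode list and the ring of origin were not used here. The plates share the 384 well positions, so shared barcodes say nothing about shared cells. The plates held 11709600, 12203400, 13211400 and 14992300 counts (6 significant digits), with medians of 30520 to 41248 counts per cell among those kept. By file name, low-resolution replicate 1 has a flow cell of its own, and without it 1569 genes rose and 1556 fell.

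Expected counts were summed per plate and class, rounded and fitted with edgeR 4.0.16 in R 4.3.3 (quasi-likelihood test, TMM, filterByExpr, Benjamini-Hochberg). The plate was a term, because each plate gave both classes. Of 380 listed cell cycle genes, the 364 with a row were removed before the fit. Fold changes are log2, and their standard error (SE) is the absolute fold change over the square root of its F statistic. DESeq2 1.42.0 was an alternative. Levels are counts per 10000 counts of the summed cells, without spike-in rows. Quantities per cell were compared by exact sign-flip permutation over plates. Scripts ran in Python 3.11.15 with numpy 2.4.6, pandas 2.3.3, scipy 1.17.1 and matplotlib 3.10.9.

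Genes were named by a rule: the 10 largest rises and 10 largest falls among called genes with the same direction in 4 plates and at least 0.5 counts per 10000 in the higher class, up to 4 genes per tested list with the smallest p, up to 4 per left-out list with the highest level, the 8 markers, the 10 genes that followed the score most, and CDH1, EPCAM, VIM and FN1. Further genes named in the text were chosen after their values were seen. The members and lists were chosen with earlier results of these data known. Tested on simulated data for the comparison of the classes (9958 genes), the fit recovered 53% of 100 genes changed 1.5-fold and 78% of 100 changed 2-fold, with 9 false calls. For the interaction it recovered 2% and 28%, with 2 false calls. The alternatives were DESeq2, no filter on low counts, no plate term, cells thinned to 10000 UMIs, the highest 1 in 5 or 1 in 20 cells, all other cells as the comparison, other scores and filters, and each plate left out.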

Additional observations from a re-analysis of the deposited data

Results flagged for a closer look

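In 8 genes of the G2/M cells, 1 plate stood apart from the other 3 in its log2 ratio to the low-score cells, by Dixon's ratio of the gap to the range, taken against its 95% critical value. In all, 123 groups of 4 plates were examined, for the genes that the naming rule gave and the quantities per cell. Chance flags about 1 in 20 groups, and 8 of 123 is near that rate. MALAT1 (0.902) was lowest in low-resolution replicate 2, at -1.39 against -0.86 to -0.80 in the other plates. CYP1B1, an oestrogen-metabolizing cytochrome (0.875), was lowest in low-resolution replicate 1, at -1.14 against -0.65 to -0.58. PSCA (0.864) and ITGB2 (0.917) fell least in high-resolution replicate 1, at -1.26 and -0.60, while HIST1H2BK (0.904) and TCN1 (0.865) fell most in high-resolution replicate 2, at -2.09 and -3.57. The splicing factor SFPQ (0.87) rose least in low-resolution replicate 1, at 0.82, and SLC3A2, an amino acid transporter subunit (0.922), in low-resolution replicate 2, at 0.41. Each of these genes kept its direction in the 4 plates.

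The difference of the G2/M effect between resolutions, high minus low on the log2 scale, passed the interaction test in edgeR for 18 genes and in DESeq2 for 0. It was negative for CASP14 (-3.89), SPRR2D (-3.618), FAM111B (-3.05), IL1R2 (-1.855), HSD11B2 (-1.747), HIST1H4C (-1.523), WFDC2 (-1.339), GDF15 (-1.272), NMU (-1.198), KRT16 (-1.062), GGH (-0.966), MT2A (-0.606), HMGB1 (-0.586) and KRT5 (-0.458). It was positive for SOX4 (1.076), ALPP (1.064), CTGF (0.805) and PMEPA1 (0.674). CASP14, a caspase of cornifying cells, had 14, 37, 1 and 1 counts in the G2/M cells of the 4 plates, and SPRR2D had 7, 22, 2 and 2, so these fitted values rest on few counts and are no bounds. FAM111B, a gene of S phase, had 18, 22, 7 and 10 counts and was higher in the G2/M cells of both low-resolution plates and lower in those of both high-resolution plates. The metallothionein MT2A rose in each plate, from 11.1, 11.9, 26.3 and 22.1 to 28.0, 26.4, 36.5 and 39.6 counts per 10000. GDF15, a stress-induced cytokine, fell in each plate, with log2 ratios of -1.03, -0.48, -2.21 and -1.82. PMEPA1, a TGF-beta target, had log2 ratios of -0.28, 0.11, 0.73 and 0.49, and ALPP, placental alkaline phosphatase, of -0.69, -0.29, 1.04 and 0.04.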

How the results depend on the processing

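The number of genes called, 3643 (1828 higher and 1815 lower in the G2/M cells), rose to 4300 with the highest 1 in 5 cells as members, to 4047 with no mitochondrial limit and to 3701 with no filter on low counts. It fell to 2074 with DESeq2 (1081 and 993), to 2166 with no replicate block, that is without the plate term (1134 and 1032), to 1481 of 7028 tested in cells thinned to 10000 UMIs (758 and 723), to 2218 with the highest 1 in 20 cells as members (1161 and 1057), to 2080 with all other cells as the comparison (1037 and 1043) and to 2052 with low-score cells of like depth (1005 and 1047), the last chosen after seeing the data. Without members over 7500 features, also chosen after seeing the data, 1574 rose and 1543 fell. Leaving out each plate in turn gave 2817 to 3291 called genes (1407 to 1688 higher, 1410 to 1603 lower). Of 115 called genes that the naming rule gave, not all of which could be fitted in each of the 19 settings, 91 kept call and direction in those where they were fitted. Reversed signs came only with cells of like depth, for VIM (-0.047) and for the mesenchymal genes per cell (-0.12). The number of genes whose effect differed between resolutions, 18, became 52 with a replicate block, here the replicate number by class added to the plate term. It was 0 with DESeq2 (80 at an unadjusted p under 0.05), 3 in thinned cells and 4 with the highest 1 in 5 cells. Leaving out 1 plate leaves a resolution with a single plate, so no count is given for it. Same-numbered plates of the resolutions share only a number, with a correlation of deviations of -0.01. The cause of these changes was not tested. With 4 plates, the tests of quantities per cell cannot pass 0.05. At this number of plates the interaction test has little power.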

Other observations

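Of 19 glycolysis genes, 9 (47.4%) fell and 4 (21.1%) rose in the G2/M cells (median log2 -0.16), beside 18.2% and 18.4% over all genes, and 2 rose without either low-resolution plate. PKM, the pyruvate kinase, was at 33.8, 38.7, 37.1 and 34.9 counts per 10000 in the G2/M cells and 45.4, 49.3, 47.4 and 48.0 in the low-score cells (log2 -0.43 ± 0.05, adjusted p = 7.13e-07), and ALDOC, an aldolase, had a log2 fold change of -1.49 ± 0.17. PFKP, a platelet-type phosphofructokinase, rose by 0.56 ± 0.10, and this call was lost in cells thinned to 10000 UMIs (0.36). Of 23 genes of cholesterol synthesis, 3 rose and 3 fell, 13% each and below the shares over all genes, 1 rose without low-resolution replicate 1, and FDFT1, the squalene synthase, was at 0.30 ± 0.07 and MSMO1, a sterol oxidase, at -0.50 ± 0.08. The call of FDFT1 was lost with cells of like depth (0.17).

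In the list of unfolded protein response and amino acid stress genes, 10 of 23 rose and 2 fell (median 0.08). PHGDH and PSAT1, which are enzymes of serine synthesis and not of protein folding, were among those that rose. PHGDH was at 0.389, 0.300, 0.629 and 0.636 counts per 10000 in the G2/M cells and 0.0872, 0.122, 0.282 and 0.191 in the low-score cells (log2 1.52 ± 0.16, adjusted p = 1.28e-07), and PSAT1 at 1.78, 1.80, 1.83 and 1.78 against 0.585, 0.853, 1.08 and 0.832 (log2 1.09 ± 0.11). ATF4, the transcription factor of the amino acid response, rose by 0.69 ± 0.08. The 2 that fell were DDIT3 (-0.81) and HERPUD1 (-0.53), the first a stress-induced transcription factor and the second a factor in the degradation of misfolded proteins. In the nuclear-encoded respiratory chain, CYCS, which encodes cytochrome c, had the smallest p and rose from 7.25, 6.53, 6.95 and 7.03 to 10.4, 9.67, 9.25 and 10.1 counts per 10000 (log2 0.47 ± 0.07, adjusted p = 5.76e-06).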
